A study of Mus musculus with 203 samples.

Results

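A set of 9 genes of epithelial cell junctions were followed through all 20 groups of a mouse lung RNA-seq series: the claudin genes Cldn1, Cldn3, Cldn4, Cldn7, Cldn10 and Cldn18, the occludin gene Ocln, the scaffold gene Tjp1 and the E-cadherin gene Cdh1. They were given as a list of names and not by a threshold on values, and make up 9 of the 43346 gene identifiers in the count table. All 9 passed the filter on low counts in every fit. The lowest count of any member in any library was 45 reads, for Cldn4.

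The libraries came from female BALB/c mice, labelled as 18 to 20 weeks old in every group, whose lungs were dissected into airways and parenchyma before total RNA was extracted. At 3 weeks, mice had received house dust mite extract (HDM) or phosphate buffered saline (PBS) through the nose on 5 days per week, which gave 11 airway and 12 parenchyma libraries for PBS and 10 of each tissue for HDM. At 11 weeks, each tissue was represented by 8 groups of 10 libraries: PBS.AIR, HDM.AIR, PBS.CS and HDM.CS, each without and with dexamethasone (DEX). HDM was then continued 3 times per week from week 4, cigarette smoke (CS) was given 2 times per day on 5 days per week for 8 weeks (weeks 4 to 11 in mice that also received HDM), AIR mice breathed normal air, and DEX, a synthetic glucocorticoid, was given during week 11. HDM is a model of experimental asthma, CS one of experimental chronic obstructive pulmonary disease, and their combination one of the overlap of both. Dissected tissue holds many cell types, and each library carries a code of its own (X1, X2 and so on) that does not say which airway and parenchyma libraries came from the same mouse.

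Tight junctions seal the space between neighbouring epithelial cells. Claudins form the strands that close this space or leave it selectively permeable to ions, occludin is a further membrane protein of the same strands, and the cytoplasmic scaffold ZO-1, the product of Tjp1, ties the strands to actin. E-cadherin holds cells together in the adherens junction beneath. In lung, claudin-18 is best known from alveolar epithelium, claudin-10 from club cells and claudin-4 from alveolar epithelium under injury, while ZO-1 is also found in endothelium.

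Libraries held between 13003087 and 40240680 counts (median 28090612), and every pair within a group differed by more than sampling noise. The labels of tissue were checked on basal cell markers (Krt5, Krt14, Krt15 and Trp63). Their summed level lay between 8.44 and 354 CPM (counts scaled to a common library size) in the airway libraries, with 1 exception, and between 0.84 and 7.71 CPM in parenchyma libraries. The exception was library X109, labelled HDM.AIR airway, in which basal markers summed to 2.38 CPM. Its cardiac muscle markers summed to 31.7 CPM, against a median of 228.1 CPM in its group. The lowest such sum in 3 week HDM airways was similar, at 31.6 CPM. The comparisons of HDM.AIR airways whose calls are described were also made without it, with 2 exceptions. These were the difference of the HDM effect between 11 and 3 weeks and the HDM by DEX interaction. Alveolar type I markers summed to at least 558 CPM in every airway library. The library codes run in 11 blocks of up to 20, and no label says what a block is. All but the last hold about 1 library per group. The last holds 4 libraries, all of 3 week PBS, with mean log2 deviations of 0.38 for Cldn18, 0.28 for Tjp1 and 0.18 for Ocln. Among the members Cldn3 moved most with the block, with a mean log2 deviation from the group means of 0.33 in the first and -0.59 in the tenth block.

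Sequences upstream of the start sites are shown for 5 members, since Cldn1 and Cldn4 on the one hand and Ocln and Tjp1 on the other moved in opposite directions in HDM-exposed parenchyma, and Cldn10 fell in both tissues. They are the 250 bases before the RefSeq start on GRCm38.p6, 5′ to 3′ on the strand of the gene. Of the 9 members, 8 had an entry, and Cdh1 had none. Capitals mark matches, on either strand, to 4 motifs: CACCTG (an E-box bound by Snail and Zeb repressors), AACNGGTT (Grainyhead), TGANTCA (AP-1) and ACANNNTGT (the core of a glucocorticoid receptor element). Any 2 of these could overlap, but no 2 matches did so here.

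Cldn1, chr16:26371840-26372089, minus strand: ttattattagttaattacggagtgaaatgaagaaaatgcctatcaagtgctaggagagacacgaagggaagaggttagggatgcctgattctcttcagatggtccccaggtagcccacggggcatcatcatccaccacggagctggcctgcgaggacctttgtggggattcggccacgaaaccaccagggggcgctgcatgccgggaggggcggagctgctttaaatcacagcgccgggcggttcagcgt
Cldn4, chr5:134946935-134947184, minus strand: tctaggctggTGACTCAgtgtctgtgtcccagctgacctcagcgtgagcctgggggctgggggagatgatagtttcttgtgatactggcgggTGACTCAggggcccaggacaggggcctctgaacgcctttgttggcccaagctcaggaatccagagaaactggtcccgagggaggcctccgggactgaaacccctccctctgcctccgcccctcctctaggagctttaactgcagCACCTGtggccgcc
Cldn10, chr14:118787621-118787870, plus strand: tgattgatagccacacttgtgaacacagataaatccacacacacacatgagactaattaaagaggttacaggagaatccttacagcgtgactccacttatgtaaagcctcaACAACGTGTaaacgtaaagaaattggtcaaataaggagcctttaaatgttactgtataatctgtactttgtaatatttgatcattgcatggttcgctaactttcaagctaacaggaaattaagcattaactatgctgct
Ocln, chr13:100552719-100552968, minus strand: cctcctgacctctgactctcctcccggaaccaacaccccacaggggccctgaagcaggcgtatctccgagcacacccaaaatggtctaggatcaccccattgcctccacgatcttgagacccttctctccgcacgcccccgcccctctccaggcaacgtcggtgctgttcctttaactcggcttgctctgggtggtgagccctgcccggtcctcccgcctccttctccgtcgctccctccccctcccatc
Tjp1, chr7:65371245-65371494, minus strand: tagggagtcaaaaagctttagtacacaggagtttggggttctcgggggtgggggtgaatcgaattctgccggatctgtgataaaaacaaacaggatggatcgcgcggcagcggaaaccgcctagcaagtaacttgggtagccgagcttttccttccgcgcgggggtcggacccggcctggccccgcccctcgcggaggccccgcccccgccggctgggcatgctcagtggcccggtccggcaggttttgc

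The Cldn4 window held CACCTG at position -14 and TGANTCA at positions -240 and -158, counted from the start site. The Cldn10 window held ACANNNTGT at position -139, and the windows shown for Cldn1, Ocln and Tjp1 held none of the 4 motifs. The Tjp1 window lies inside the annotated gene, whose 5′ end on the minus strand is at 65527781, and the sequence before that end is not shown. Among 32851 upstream windows of the same length, 17.2% held CACCTG, 1.79% AACNGGTT, 6.75% TGANTCA and 5.84% ACANNNTGT. A match describes the letters of the window and is no evidence of binding. Cldn7, Cldn10, Cldn18 and Ocln each have a further RefSeq start, of which that of Ocln held CACCTG at positions -213 and -68 and that of Cldn7 at -97 and -57, and counts per gene do not tell their transcripts apart.

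The members differed widely in level. To compare genes, normalized CPM were divided by exon length (CPM per kb). In PBS.AIR parenchyma at 11 weeks Cldn18 was highest at 199.7 ± 10.8 CPM per kb (SD, n = 10), followed by Cdh1 at 67.4 ± 5.92, Tjp1 at 63.9 ± 7.12 and Cldn3 at 46.7 ± 11.1 CPM per kb. Ocln (24 ± 2.44) and Cldn7 (20.8 ± 1.78 CPM per kb) came next, and Cldn10 (5.88 ± 1.27), Cldn1 (2.20 ± 0.451) and Cldn4 (2.10 ± 0.376 CPM per kb) were lowest. Cdh1 and Tjp1, Ocln and Cldn7, and Cldn1 and Cldn4 were neighbours whose levels per length differed by about their spread or less. In PBS.AIR airways Cldn18 (86.2 ± 38.8), Cdh1 (68.2 ± 6.75) and Cldn3 (68.1 ± 19.0 CPM per kb) could not be separated within their spread. Cldn4 stood at 6.62 ± 2.30 and Cldn1 at 4.04 ± 1.16 CPM per kb there.

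Across the 20 group means, Cldn4 varied most, by 6.04-fold, and Cldn7 least, by 1.52-fold. Cldn4 ranged from 3.81 ± 0.683 CPM in PBS.AIR parenchyma at 11 weeks to 23 ± 7.17 CPM in HDM airways at 3 weeks, and Cldn1 from 5.10 ± 0.990 CPM in PBS.AIR.DEX parenchyma to 25.3 ± 6.87 CPM in PBS airways at 3 weeks. Cldn10 spanned 12.1 ± 2.32 CPM (HDM parenchyma, 3 weeks) to 46.6 ± 11.6 CPM (PBS.CS.DEX airways). Tjp1 spanned 133.3 ± 33 CPM to 499 ± 55.6 CPM and Ocln went up 2.99-fold from 38.5 ± 3.58 CPM. Both had their lowest mean in HDM airways at 3 weeks and their highest in parenchyma of PBS-exposed mice at 11 weeks. Cdh1 stayed between 261 ± 33.6 and 432 ± 48.9 CPM, and Cldn3 between 55.3 ± 13.5 and 95.5 ± 16.2 CPM.

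**Figure D1:**
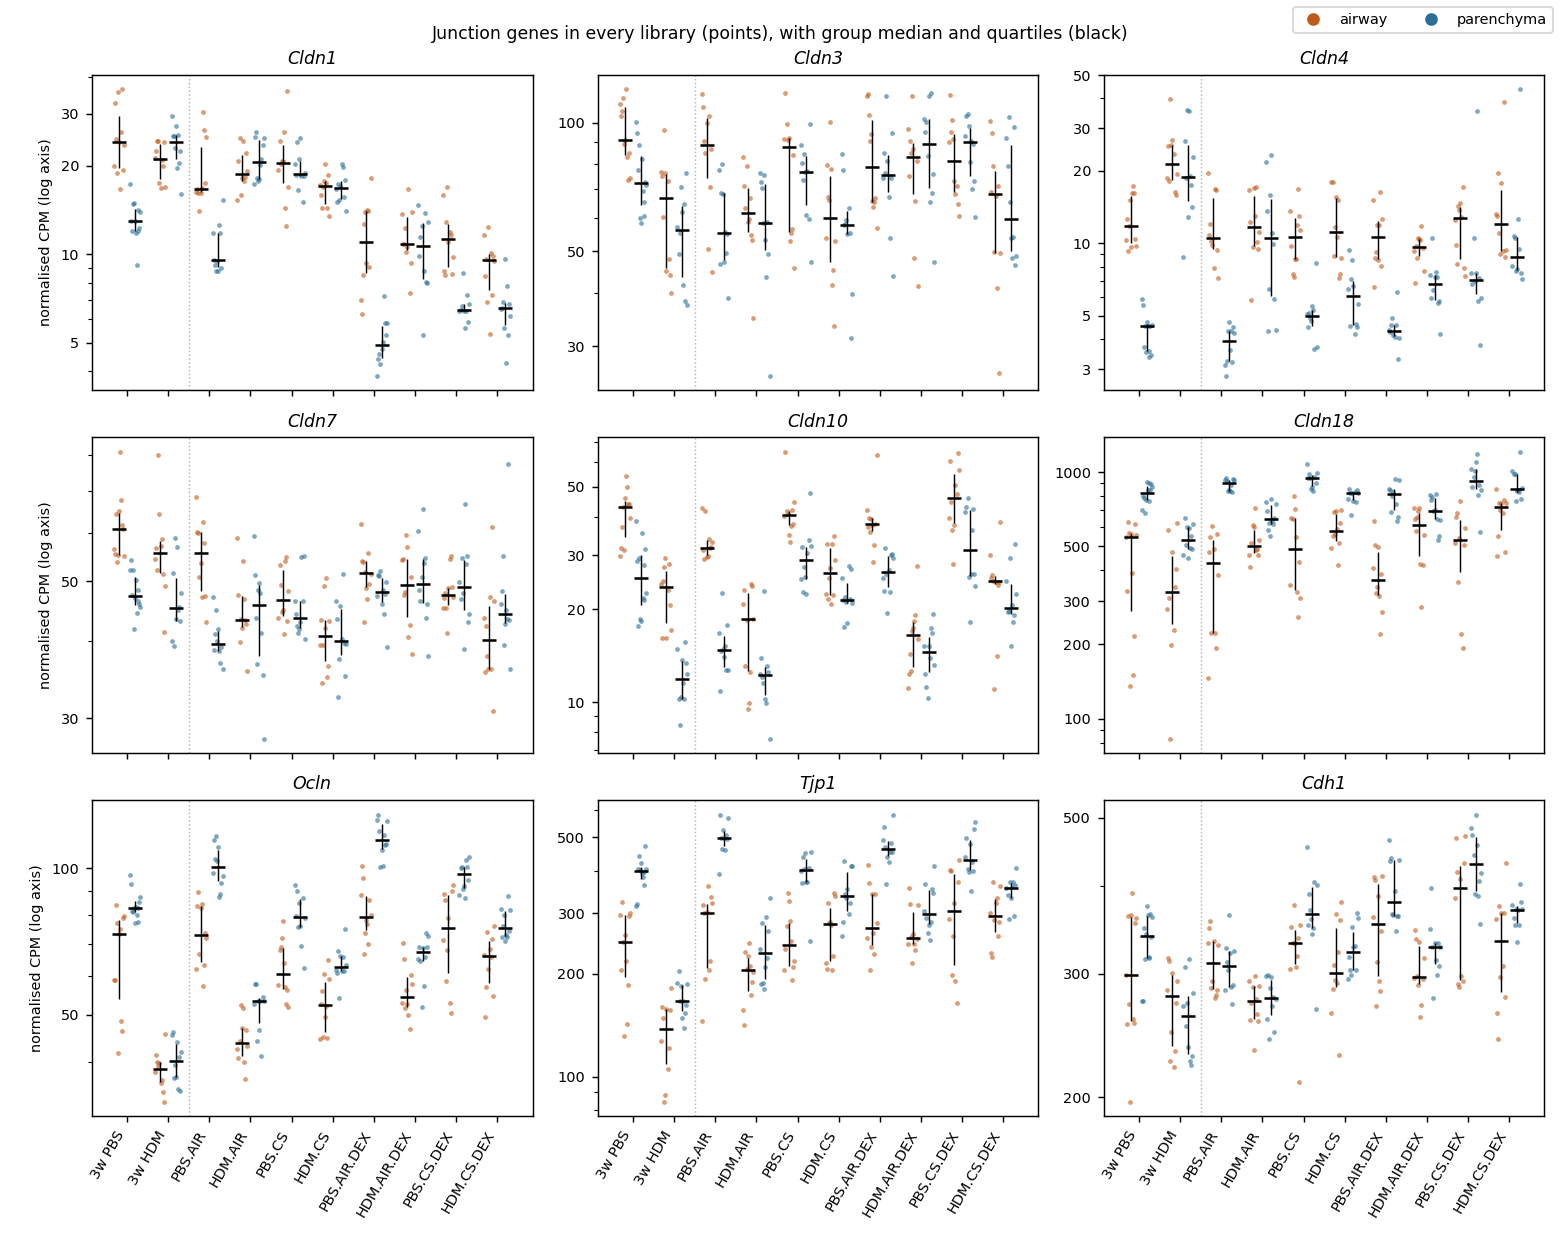
Normalized level of each member (CPM, log axis) in every library, by group of week, tissue and exposure; lines mark the median and quartiles of a group. Cldn18, Tjp1 and Cdh1 lie far above Cldn1 and Cldn4, Cldn18 scatters more widely among airway than among parenchyma libraries, and the median of Cldn1 is lower in every DEX group than in the matching group without DEX.

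Airways and parenchyma of PBS-exposed mice differed in 8 of the 9 members at 3 weeks and in 8 at 11 weeks, with the same members on the same side. Cldn1, Cldn3, Cldn4, Cldn7 and Cldn10 were higher in airways, Cldn18, Ocln and Tjp1 were higher in parenchyma, and Cdh1 passed at neither time. Among all genes, 24.3% were higher and 31.7% lower in airways at 3 weeks, and 26.3% and 30.1% at 11 weeks in PBS.AIR mice. Tests were moderated tests of limma-voom with Benjamini-Hochberg adjustment (adj.p) throughout.

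Cldn4, a sealing claudin, ranged from 9.25 to 17.3 CPM (median 11.8) in PBS airways at 3 weeks and from 3.37 to 5.86 CPM (median 4.55) in PBS parenchyma, without overlap (log2FC 1.54 ± 0.25 SE, adj.p = 2.1e-06). At 11 weeks the range was 7.14 to 19.5 CPM (median 10.5) against 2.81 to 4.73 CPM (median 3.93), again without overlap (log2FC 1.62, adj.p = 2.7e-07). Among all genes, 7% at 3 weeks and 10.3% at 11 weeks were higher in airways without overlap. Cldn10 was higher in PBS.AIR airways by a log2FC of 1.19 (29.2 to 42.6 CPM, median 31.7, against 10.9 to 22.6 CPM, median 14.8), and Cldn1 by 0.88 (14.0 to 30.5 CPM, median 16.7, against 8.74 to 15.3 CPM, median 9.53).

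Cldn18 showed the opposite order. It ranged from 146.9 to 604 CPM (median 428) in PBS.AIR airways and from 830 to 948 CPM (median 905) in PBS.AIR parenchyma (log2FC -1.34 ± 0.17 SE, adj.p = 7.8e-12). Tjp1 ranged from 145.3 to 360 CPM (median 301) and from 390 to 583 CPM (median 499), likewise without overlap (log2FC -0.90, adj.p = 1.1e-09). Of all genes, 7.07% were lower in airways without overlap. Ocln was lower in airways as well (log2FC -0.43). Cdh1 gave log2FC 0.05 (95% interval -0.10 to 0.21) and was the member whose level differed least between the tissues.

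In exposed mice fewer members passed. In HDM airways less HDM parenchyma at 3 weeks, Cldn7 (log2FC 0.30) and Cldn10 (0.94) were higher and Cldn18 (-0.76) and Tjp1 (-0.34) lower, beside 19.5% and 16.7% of all genes. In HDM.AIR mice at 11 weeks none of the 9 passed with all libraries, against 7.95% of genes higher and 3.48% lower, and in HDM.AIR.DEX mice none of the 9 either (6.45% and 1.23%). Without library X109, Cldn10 (log2FC 0.51, adj.p = 0.035) and Ocln (-0.23, adj.p = 0.037) passed in HDM.AIR mice. In limma-voom 4 members had an unadjusted p under 0.05 in HDM.AIR mice and 1 in HDM.AIR.DEX mice. In HDM.AIR mice edgeR's quasi-likelihood test and DESeq2 each called 1 member, and in HDM.AIR.DEX mice both called 0. The airway libraries differed in other tissue as well. Median cardiac muscle marker sums were 1360 CPM in PBS.AIR and 228.1 CPM in HDM.AIR airways, and smooth muscle sums 847.9 and 291.9 CPM. A different mix of dissected tissue and a change in the members cannot be told apart here. In PBS.CS mice Cldn4 (1.11) and Cldn10 (0.51) were higher and Cldn18 (-0.98), Ocln (-0.33) and Tjp1 (-0.61) lower, with 23.4% and 23.8% of all genes. In HDM.CS mice Cldn4 was higher (0.95) and Cldn18 (-0.46), Ocln (-0.27) and Tjp1 (-0.35) lower, with 12.1% and 7.85%, but the 3 lower calls did not pass without the filter on low counts (adj.p = 0.066 to 0.11). With DEX in addition, Cldn1, Cldn4 and Cldn10 were higher and Cldn18, Ocln and Tjp1 lower both in PBS.AIR.DEX mice (25.3% and 24.8% of all genes) and in PBS.CS.DEX mice (23.8% and 22.5%), and in HDM.CS.DEX mice Cldn1 was higher (0.46) and Ocln lower (-0.26), beside 12.5% and 7.74%.

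**Figure D2:**
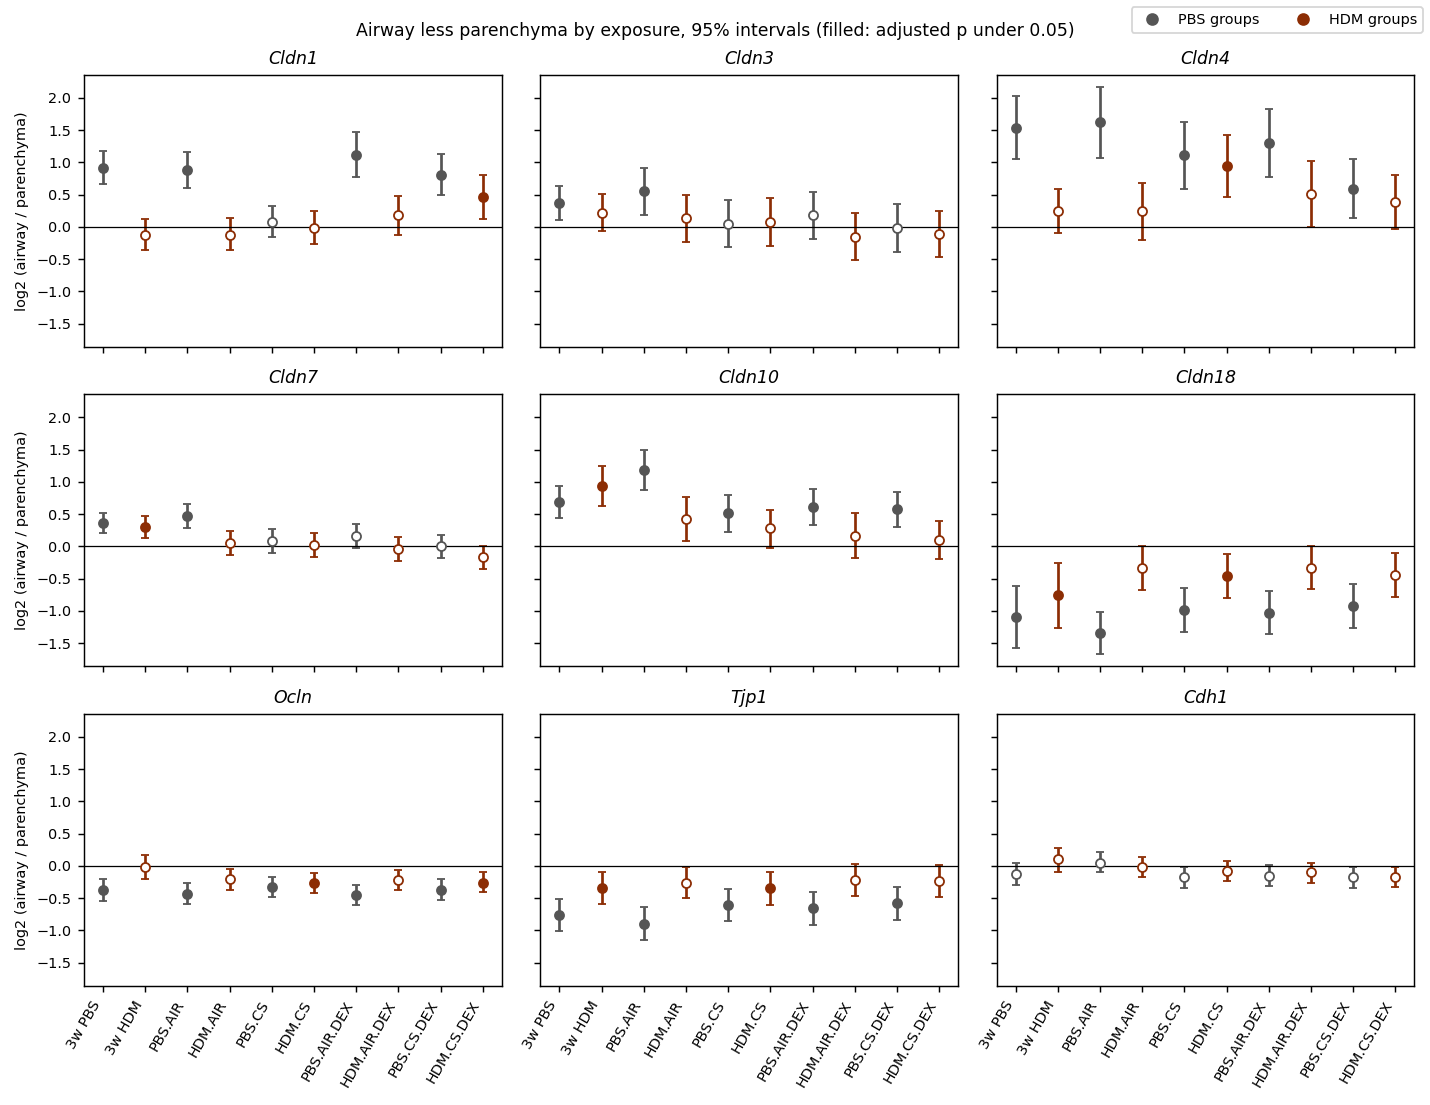
Airway less parenchyma log2FC of each member in each exposure group, with 95% intervals; filled points passed adj.p under 0.05. In PBS-exposed groups Cldn4 and Cldn10 lie above 0 and Cldn18, Ocln and Tjp1 below 0. In HDM.AIR and HDM.AIR.DEX mice no point is filled.

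At 3 weeks, HDM lowered most of the 9 genes and raised Cldn4. In airways 1 member rose and 5 fell, and in parenchyma 2 rose and 6 fell. Among all genes tested, 34.1% rose and 40.5% fell in airways, and 33.4% rose and 44.3% fell in parenchyma, so a change as such was common. The median log2FC of the members was -0.33 in airways and -0.52 in parenchyma, against -0.07 and -0.13 over all genes. In bulk tissue, fewer cells of a type and less RNA per cell cannot be told apart, and this holds for all results on the members.

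Cldn4 rose in parenchyma from a range of 3.37 to 5.86 CPM in PBS libraries (median 4.55) to 8.80 to 35.9 CPM in HDM libraries (median 18.8), without overlap. The fold was 4.29 (log2FC 2.10 ± 0.25 SE, adj.p = 4.2e-10). In airways it rose from 9.25 to 17.3 CPM (median 11.8) to 15.9 to 39.9 CPM (median 21.4), with overlapping ranges (log2FC 0.81, adj.p = 0.0001). Cldn4 was thus lowest in PBS parenchyma, and its mean in HDM parenchyma, 21.1 ± 9.10 CPM, lay within 1 SD of that in HDM airways, 23 ± 7.17 CPM.

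Cldn1, which is needed for the barrier of stratified epithelia, went opposite ways in the tissues. In parenchyma it rose from 9.20 to 17.3 CPM (median 13.0) to 16.0 to 29.6 CPM (median 24.1), with a log2FC of 0.76 ± 0.13 SE (adj.p = 2.3e-06). In airways it fell by 0.29 on the log2 scale (adj.p = 0.025), which did not pass without the filter on low counts (-0.23, adj.p = 0.11).

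Among the claudins that fell, Cldn10 changed most. It went from 29.7 to 54.4 CPM (median 43.1) to 16.2 to 29.3 CPM (median 23.6) in airways (log2FC -0.89 ± 0.13 SE, adj.p = 7.1e-08), and from 17.7 to 38.7 CPM (median 25.2) to 8.45 to 15.7 CPM (median 11.9) in parenchyma (log2FC -1.14 ± 0.15 SE, adj.p = 1.3e-08). Every HDM library lay below every PBS library in both tissues. Cldn3, a sealing claudin of many simple epithelia, fell in airways (log2FC -0.66, adj.p = 8.2e-05) and in parenchyma (-0.52, adj.p = 0.001), with overlapping ranges. Cldn7, which lies along the lateral membrane as well as in tight junctions, gave -0.16 (adj.p = 0.072) and -0.10 (adj.p = 0.28), and passed in neither tissue.

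Cldn18 fell in parenchyma from 683 to 914 CPM (median 825) to 450 to 654 CPM (median 529), without overlap (log2FC -0.66 ± 0.25 SE, adj.p = 0.017). In airways its ranges were 135.2 to 629 CPM (median 544) and 82.9 to 623 CPM (median 325), and the log2FC of -0.33 did not pass (adj.p = 0.22). The wide airway ranges went with alveolar type I markers, which summed to 1090 to 4290 CPM in PBS airways and to 558 to 2800 CPM in HDM airways.

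Ocln and Tjp1 fell in both tissues, further in parenchyma. Ocln went from 77.3 to 97 CPM (median 82.9) to 34.9 to 46.1 CPM (median 40.3) in parenchyma (log2FC -1.13 ± 0.09 SE, adj.p = 5.7e-15), and from 41.8 to 84.2 CPM (median 73.2) to 33.2 to 45.7 CPM (median 38.7) in airways (-0.77 ± 0.09 SE, adj.p = 5.9e-10). Tjp1 went from 315 to 471 CPM (median 400) to 138.7 to 203.5 CPM (median 166.2) in parenchyma (-1.28 ± 0.13 SE, adj.p = 4.8e-12), and from 131.4 to 323.5 CPM (median 247.3) to 84.6 to 182.2 CPM (median 137.9) in airways (-0.85 ± 0.13 SE, adj.p = 1.2e-07). The groups did not overlap in parenchyma for either gene and overlapped in airways. Cdh1 fell by 0.41 on the log2 scale in parenchyma (adj.p = 5e-05), from a median of 340 to 261 CPM, and gave -0.20 in airways (adj.p = 0.051), which passed in 3 of the alternatives. In parenchyma, Cldn4 was the member that rose without overlap, as 20.3% of all genes did, and Cldn10, Cldn18, Ocln and Tjp1 fell without overlap, as 19.4% did. In airways the 1 such member was Cldn10, beside 9.15% of all genes.

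At 11 weeks, HDM.AIR less PBS.AIR gave 1 rise and 4 falls in airways and 2 rises and 2 falls in parenchyma. Among all genes, 31.3% rose and 29.8% fell in airways, and 32.6% and 26.9% in parenchyma. In parenchyma Cldn1 rose from 8.74 to 15.3 CPM (median 9.53) to 17.3 to 26.1 CPM (median 20.5), without overlap (log2FC 1.07 ± 0.14 SE, adj.p = 2.6e-11). Cldn4 rose from 2.81 to 4.73 CPM (median 3.93) to 4.31 to 23.2 CPM (median 10.5), with overlap (log2FC 1.45 ± 0.29 SE, adj.p = 5e-06). In airways neither gene changed past the threshold, with log2FC 0.07 for each (95% intervals -0.17 to 0.32 for Cldn1 and -0.36 to 0.49 for Cldn4).

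Ocln fell without overlap in both tissues at 11 weeks. It went from 57.2 to 89.6 CPM (median 72.8) to 36.9 to 52.5 CPM (median 43.7) in airways (log2FC -0.69 ± 0.08 SE, adj.p = 1.6e-13) and from 87.2 to 116.2 CPM (median 100.4) to 41.2 to 57.9 CPM (median 53.3) in parenchyma (-0.91 ± 0.08 SE, adj.p = 2.2e-20). Tjp1 fell from 390 to 583 CPM (median 499) to 180 to 333 CPM (median 229) in parenchyma, without overlap (-1.02 ± 0.13 SE, adj.p = 4.8e-12), and by 0.38 in airways (adj.p = 0.0049). Cldn10 fell in airways, from 29.2 to 42.6 CPM (median 31.7) to 9.51 to 24.2 CPM (median 18.5), without overlap (-1.0 ± 0.15 SE, adj.p = 8.9e-09), and gave -0.23 in parenchyma (adj.p = 0.27). Of all genes, 6.03% in airways and 11.1% in parenchyma fell without overlap, and 11.8% rose so in parenchyma.

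Cldn18 rose in airways at 11 weeks, from 146.9 to 604 CPM (median 428) to 414 to 714 CPM (median 503), with a log2FC of 0.63 ± 0.16 SE (adj.p = 0.00043). Here 5 of 7 alveolar type II markers rose with it (median sums of 13600 and 15400 CPM), whereas of 6 alveolar type I markers 1 rose and 2 fell (2960 and 2220 CPM). The part of these markers in the result was not tested. In parenchyma all 10 HDM.AIR libraries (552 to 778 CPM, median 643) lay below all PBS.AIR libraries (830 to 948 CPM, median 905), yet the log2FC of -0.37 did not pass (adj.p = 0.061). The fit estimates 1 spread per gene over both tissues. Cldn18 passed in 5 alternatives, with adj.p from 0.026 to 0.044. Cldn7 fell in airways (-0.25, adj.p = 0.014), while Cldn3 (-0.41, adj.p = 0.051) and Cdh1 (-0.17, adj.p = 0.062) did not pass there but passed in several alternatives. With the block of library codes as a term, Cldn3 gave -0.41 with adj.p = 0.0043. Without library X109 the airway log2FC were -0.71 for Ocln, -0.92 for Cldn10, 0.58 for Cldn18, -0.42 for Tjp1 and -0.28 for Cldn7, all past the threshold, and Cdh1 (-0.18, adj.p = 0.048) passed as well.

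**Figure D3:**
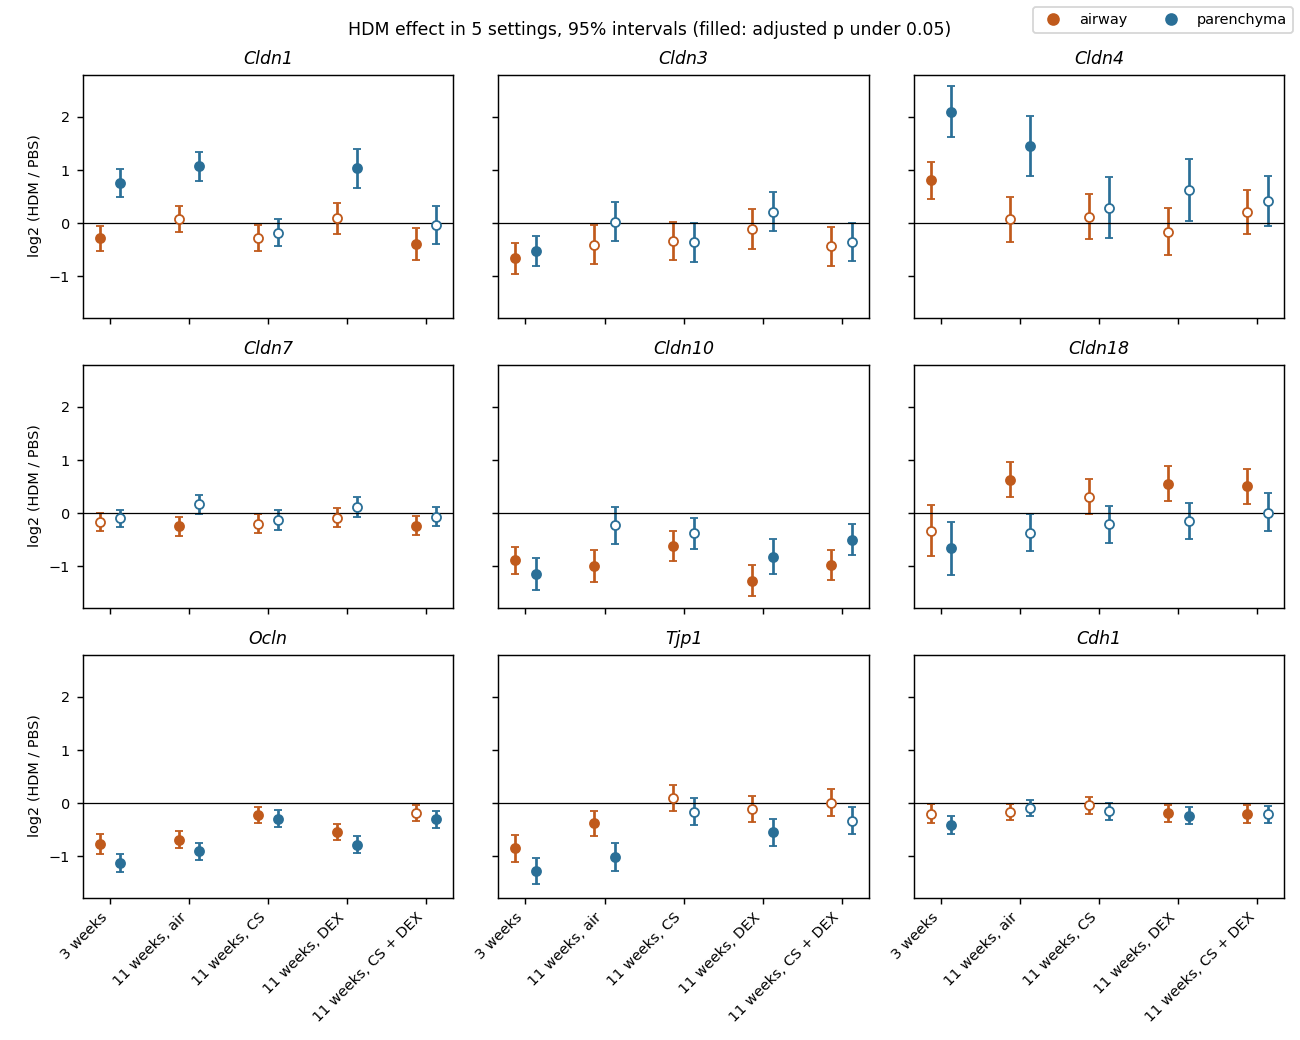
HDM less PBS log2FC of each member in airways and parenchyma at 3 weeks and, at 11 weeks, in air, under CS, under DEX and under CS with DEX. Bars are 95% intervals, and filled points passed adj.p under 0.05. At 3 weeks and at 11 weeks in air, Ocln and Tjp1 lie below 0 in both tissues and Cldn1 lies above 0 in parenchyma. Cldn4 lies above 0 at 3 weeks in both tissues and at 11 weeks in air in parenchyma. Under CS the Cldn1 point of parenchyma lies below 0.

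The difference of the HDM effect between the tissues was tested as an interaction (airway effect less parenchyma effect). At 3 weeks Cldn1 (-1.04, adj.p = 0.00014) and Cldn4 (-1.29, adj.p = 0.0036) rose less, or fell, in airways, beside 6.44% of all genes with a lower value in airways. Ocln gave 0.36 (adj.p = 0.045; 10.8% of genes were higher), but this did not pass in 6 alternatives, where adj.p was 0.061 to 0.14. At 11 weeks Cldn1 (-1.0), Cldn4 (-1.38), Cldn7 (-0.42) and Cldn10 (-0.76) were lower in this comparison and Cldn18 (1.00) and Tjp1 (0.63) higher, beside 14.9% and 12.7% of all genes. Without library X109 these 6 values were -1.03, -1.40, -0.45, -0.68, 0.95 and 0.60, all past the threshold. Cldn3 and Cdh1 passed at neither time. The part of the muscle marker shifts in airways in these differences was not tested.

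The HDM effect at 11 weeks less that at 3 weeks was tested in a fit of all libraries together. Between these times the HDM schedule, the number of doses and the sampling time all differed. In airways Cldn4 was lower (-0.80, adj.p = 0.025), beside 13.9% of all genes, and Cldn18 was higher (0.90, adj.p = 0.0055), beside 14.5%. In parenchyma Cldn10 was higher (0.78, adj.p = 0.0061), beside 21.5%. For Cldn4 the difference was -0.67 (adj.p = 0.087) without 6 libraries that stood apart, X109 among them. No fit of this difference left out X109 alone. Control levels also moved between the times: in PBS parenchyma Cldn7 (-0.25) and Cldn10 (-0.75) were lower and Ocln (0.26) and Tjp1 (0.34) higher at 11 weeks, beside 30% and 25.5% of genes, and in PBS airways Cldn1 was lower (-0.39), beside 23.1%, and no member was higher (21.2%).

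Markers of several cell types moved as well. At 3 weeks HDM lowered 5 of 6 alveolar type I markers in each tissue, and their sum went from 4720 to 6550 CPM to 2210 to 2840 CPM in parenchyma. All 5 endothelial markers fell in each tissue, with sums of 1660 to 2340 CPM and 637 to 900 CPM in parenchyma. Of 4 club cell markers 3 fell in each tissue, and all 5 leukocyte markers rose (618 to 864 CPM and 1730 to 2400 CPM in parenchyma). Of the 6 pan-epithelial markers (Epcam, Krt7, Krt8, Krt18, Krt19 and Esrp1) 2 fell in each tissue, with sums of 784 to 1030 CPM and 719 to 1180 CPM in parenchyma. At 11 weeks the leukocyte sum was 518 to 640 CPM in PBS.AIR and 1240 to 1960 CPM in HDM.AIR parenchyma, and the alveolar type I sum 5430 to 6680 and 2120 to 3760 CPM. No marker of these 5 lists was under 1 CPM in every library of a group. At 3 weeks the median goblet marker sum was 286.4 CPM in PBS and 4300 CPM in HDM airways, and 39.8 and 631 CPM in parenchyma. For alveolar type II markers these medians were 18600 and 11700 CPM in airways and 27700 and 19300 CPM in parenchyma. Median cardiac muscle sums in airways were 600 CPM in PBS and 192.9 CPM in HDM mice at 3 weeks, and 1360 and 228.1 CPM at 11 weeks in air. Smooth muscle medians there were 517.4 and 359.5 CPM, and 847.9 and 291.9 CPM. In parenchyma at 11 weeks the smooth muscle median was higher with HDM (128.8 and 173.7 CPM). The part of all these markers in the members' changes was not tested.

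As a separate quantity, members were expressed relative to the geometric mean of the 6 pan-epithelial markers in place of the library size. On this scale Ocln still fell with HDM in parenchyma by 0.99 at 3 weeks and 0.80 at 11 weeks, and Tjp1 by 1.13 and 0.90, and Cldn10 in airways by 0.69 and 0.79, all past the threshold. On this scale 34.3% and 15.8% of all genes were lower in parenchyma and 25.5% and 16.2% in airways. Cldn4 rose in parenchyma by 2.27 and 1.60 and Cldn1 by 0.90 and 1.18, beside 37.2% and 35.1% of all genes. In airways at 11 weeks Tjp1 (-0.19) no longer passed and Cdh1 stood at 0.03. The median of all genes on this scale was 0.02 and 0.16 in parenchyma and 0.14 and 0.20 in airways at the 2 times.

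Within groups, the members went with different marker lists from library to library. In the 101 airway libraries, after subtraction of group means, Cldn18 went with alveolar type I (Pearson r = 0.96) and type II markers (0.93), Tjp1 with alveolar type I (0.89) and endothelial markers (0.87), Ocln with alveolar type I (0.78), and Cldn10 with club (0.78) and ciliated markers (0.64). Cldn18, Tjp1 and Ocln ran opposite to basal (-0.78, -0.77 and -0.59) and smooth muscle markers (-0.73, -0.70 and -0.65). Cldn4 had 0.61 with mesothelial, 0.59 with basal, 0.27 with pan-epithelial and -0.64 with endothelial markers. How far such values reflect a varying mix of airway and parenchyma in a library was not tested. In the parenchyma libraries Cldn10 went with club (0.74), Cldn4 (0.70) and Cldn7 (0.66) with pan-epithelial, and Tjp1 with endothelial markers (0.66). Coefficients with alveolar type I markers were lower there than in airways, at 0.24 for Cldn18, 0.33 for Ocln and 0.44 for Tjp1. With type II markers Cldn18 had 0.18 in parenchyma, and Tjp1 had -0.40 there against 0.80 in airways. Cldn1 had coefficients between -0.40 and 0.33 with all lists in both tissues. Both values of each pair come from the same library and its scaling, so these coefficients are descriptive.

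**Figure D4:**
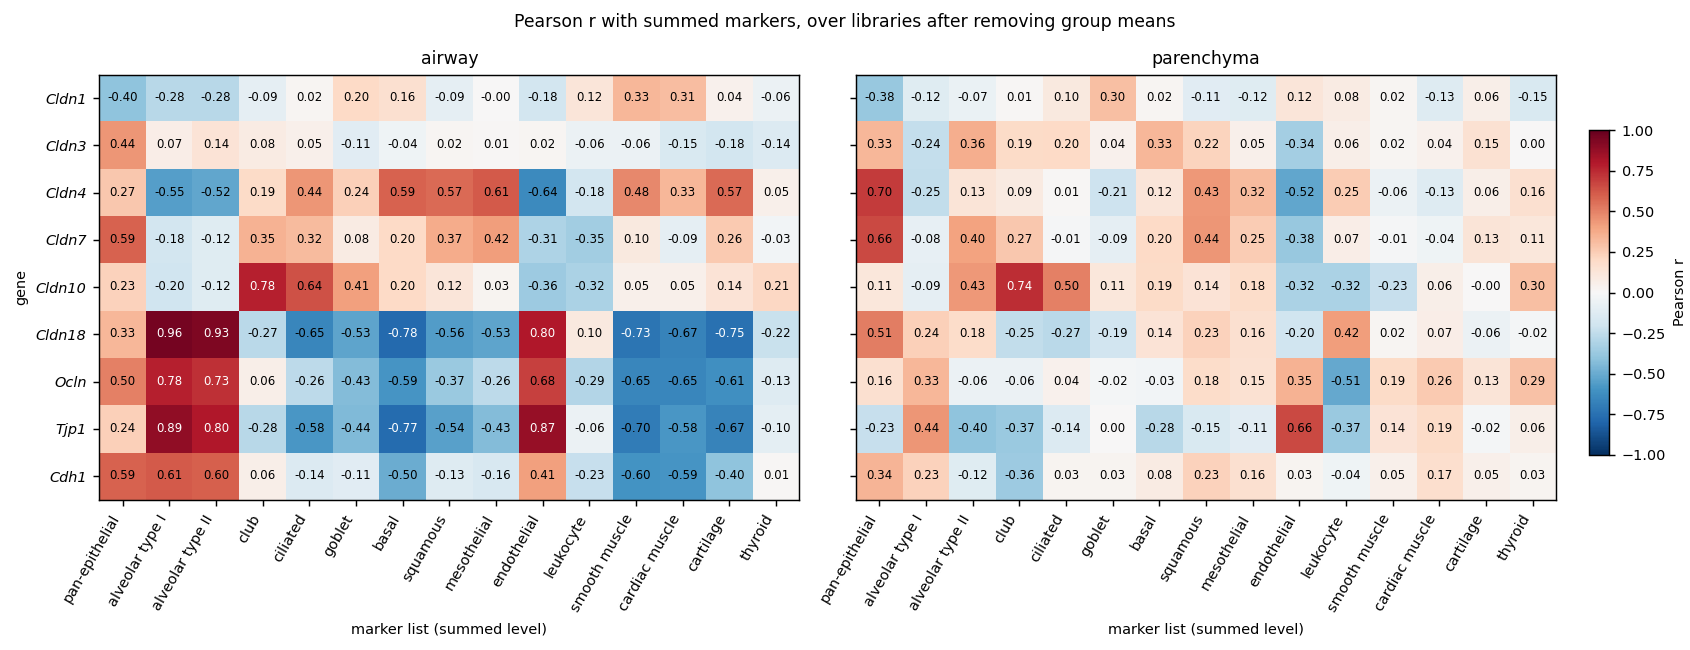
Pearson r between each member and the summed level of each marker list over libraries of a tissue, after subtraction of group means (101 airway libraries on one side, parenchyma libraries on the other). Cldn18 and Tjp1 go with alveolar type I markers and against basal markers in airways, and Cldn10 goes with club markers in both tissues.

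CS alone at 11 weeks (PBS.CS less PBS.AIR) changed few members in airways and 5 of 9 in parenchyma. In airways Ocln fell by 0.24 (adj.p = 0.032), beside 6.03% of all genes lower and 7.66% higher, and this was at the threshold in 1 fit of all libraries (adj.p = 0.05). In parenchyma Cldn1, Cldn10 and Cdh1 rose and Ocln and Tjp1 fell, beside 17.7% and 18.2% of all genes. Cldn1 went from 8.74 to 15.3 CPM (median 9.53) to 15.1 to 24.8 CPM (median 18.8), and Cldn10 from 10.9 to 22.6 CPM (median 14.8) to 22.4 to 47.6 CPM (median 28.9), with ranges that overlapped slightly. The log2FC were 0.90 ± 0.14 SE (adj.p = 8.3e-08) and 0.98 ± 0.16 SE (adj.p = 2.7e-07).

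Cdh1 rose in CS-exposed parenchyma by a log2FC of 0.27 (adj.p = 0.0055) and Ocln fell by 0.33 (adj.p = 0.00041), from a median of 100.4 to 79.4 CPM. Tjp1 fell by 0.35 (adj.p = 0.029), but by 0.29 with adj.p = 0.085 without library X173, whose 248 CPM was the lowest of its group. In the same tissue 3 of 4 club and 4 of 6 ciliated markers rose and 3 of 5 endothelial markers fell, with club sums of 17000 to 30500 CPM and 21400 to 64600 CPM, ciliated sums of 117.5 to 181.5 and 179.1 to 278.1 CPM, and endothelial sums of 2510 to 3030 and 1640 to 2350 CPM. Their part in the changes of Cldn10, Ocln and Tjp1 was not tested. The difference of the CS effect between tissues passed for Cldn1 (-0.80, adj.p = 0.0056), beside 3.04% of all genes.

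Where CS was added to HDM (HDM.CS less HDM.AIR), Ocln, Tjp1 and Cldn10 were higher in both tissues. In airways Cldn10 (0.68), Tjp1 (0.41) and Ocln (0.23) were higher and no member was lower, beside 6.07% and 10.1% of all genes. Without library X109 these were 0.60, 0.45 and 0.25, all past the threshold. In parenchyma Cldn10 (0.83), Tjp1 (0.51), Ocln (0.29) and Cdh1 (0.22) were higher and Cldn4 (-0.77) and Cldn1 (-0.35) lower, beside 10% and 14.1%. Tjp1 ranged from 180 to 333 CPM (median 229) in HDM.AIR and from 258 to 427 CPM (median 337) in HDM.CS parenchyma, and Cldn4 from 4.31 to 23.2 CPM (median 10.5) and from 4.20 to 9.39 CPM (median 6.03). The ranges of both genes overlapped. In this comparison all 5 endothelial markers were higher in each tissue (600 to 1640 CPM and 1340 to 2230 CPM in parenchyma), and 4 of 6 alveolar type I and all 4 club markers in parenchyma.

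The interaction of HDM and CS passed for 4 members in parenchyma and 2 in airways. In parenchyma the HDM effect on Cldn1 was 1.07 in air-exposed and -0.19 in CS-exposed mice (interaction -1.25 ± 0.19 SE, adj.p = 2.7e-08), and that on Cldn4 was 1.45 and 0.28 (-1.16 ± 0.41 SE, adj.p = 0.018). For Ocln the effects were -0.91 and -0.29 (0.62 ± 0.11 SE, adj.p = 2.7e-06), and for Tjp1 -1.02 and -0.16 (0.85 ± 0.18 SE, adj.p = 5.8e-05). All 4 HDM effects were thus closer to 0 under CS. Among all genes 17.3% had a higher and 18.7% a lower interaction. In airways Ocln (0.47, adj.p = 0.0013) and Tjp1 (0.48, adj.p = 0.042) passed, beside 7.72% of all genes, and without library X109 they gave 0.49 and 0.51, still past it. For Cldn4 in parenchyma, adj.p was 0.072 among genes of at least 10 CPM.

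Under CS the HDM effect passed for Ocln in parenchyma (-0.29, adj.p = 0.007, beside 2.42% of all genes lower and 7.52% higher) and for Cldn10 (-0.62) and Ocln (-0.22) in airways (15.6% and 17.5%). Under DEX it passed in airways for Cldn10 (-1.27), Ocln (-0.54), Cdh1 (-0.19) and Cldn18 (0.55), beside 26.1% lower and 23.6% higher, and in parenchyma for Cldn1 (1.03), Cldn10 (-0.82), Ocln (-0.78), Tjp1 (-0.54) and Cdh1 (-0.24), beside 22.6% higher and 19.6% lower. Under CS and DEX it passed in airways for Cldn10 (-0.98), Cldn1 (-0.39), Cldn7 (-0.24), Cdh1 (-0.21) and Cldn18 (0.51), beside 17.7% and 15.9%, where without the filter on low counts Cldn1, Cldn7 and Cdh1 did not pass (adj.p = 0.073 to 0.11). In parenchyma it passed for Cldn10 (-0.50), Tjp1 (-0.34) and Ocln (-0.30), beside 9.09% lower and 12.9% higher. These comparisons use different control groups, and the log2FC of Ocln was negative in each of them, at -0.19 (adj.p = 0.058) in airways under CS and DEX.

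Mice that received both HDM and CS were also set against PBS.AIR mice. In airways Cldn18 was higher (0.76) and Cldn3 (-0.47), Cldn7 (-0.40) and Ocln (-0.46) lower, beside 25.2% and 23.8% of all genes. In parenchyma Cldn1 (0.71) and Cldn10 (0.59) were higher and Ocln (-0.63) and Tjp1 (-0.51) lower, beside 25.4% and 22% of all genes. Ocln was at 54.2 to 75.1 CPM (median 62.6) in HDM.CS parenchyma, below all PBS.AIR libraries at 87.2 to 116.2 CPM, as were 6.82% of all genes. This comparison shares its control libraries with the HDM and CS effects above.

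DEX lowered Cldn1 in all 8 comparisons, by log2FC from -0.80 to -1.55. Among all genes, the share that fell in PBS.AIR, HDM.AIR, PBS.CS and HDM.CS was 6.85%, 16%, 6.6% and 7.05% in airways and 12%, 16.2%, 9.49% and 5.4% in parenchyma. In parenchyma the libraries with and without DEX did not overlap in any of the 4 backgrounds. Cldn1 ranged from 8.74 to 15.3 CPM without and 3.85 to 7.22 CPM with DEX in PBS.AIR (log2FC -1.05 ± 0.18 SE, adj.p = 1.9e-06), and from 17.3 to 26.1 CPM and 5.32 to 14.7 CPM in HDM.AIR (-1.09 ± 0.14 SE, adj.p = 4.1e-10). In PBS.CS the ranges were 15.1 to 24.8 CPM and 5.60 to 8.64 CPM (-1.55 ± 0.16 SE, adj.p = 1.3e-14), and in HDM.CS 14.0 to 20.2 CPM and 4.26 to 9.60 CPM (-1.40 ± 0.16 SE, adj.p = 9e-12). The share of all genes that fell without overlap was 2.3%, 1.72%, 1.08% and 1.09% in these 4 comparisons.

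In airways Cldn1 fell by 0.81 in PBS.AIR (adj.p = 2.8e-06), 0.80 in HDM.AIR (adj.p = 9.6e-07), 0.82 in PBS.CS (adj.p = 1.8e-06) and 0.93 in HDM.CS (adj.p = 3.6e-07). The groups overlapped except in HDM.CS, where 13.5 to 20.2 CPM became 5.33 to 12.4 CPM and 0.532% of all genes fell without overlap. The HDM-exposed parenchyma treated with DEX, at a median of 10.7 CPM, lay close to untreated PBS.AIR parenchyma at 9.53 CPM. The HDM by DEX interaction did not pass for any of the 9 members in either tissue (Cldn1 0.02 in airways, 95% interval -0.36 to 0.39, and -0.03 in parenchyma, -0.49 to 0.42), in limma-voom, with 0 members in airways and 3 in parenchyma at an unadjusted p under 0.05, while 3.52% and 6.38% of all genes had a lower and 1.11% and 6.02% a higher interaction. Relative to pan-epithelial markers the fall of Cldn1 was -0.84 to -2.08 and passed in all 8 comparisons, but on that scale 12.2% to 46.4% of all genes fell in airways and 16.3% to 74.3% in parenchyma, with medians of all genes down to -0.52. Leukocyte markers fell with DEX as well, 3 of 5 in PBS.AIR parenchyma, where their sum went from 518 to 640 CPM to 320 to 611 CPM. Their part in the fall of Cldn1 was not tested.

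Ocln was higher with DEX in HDM.AIR airways (0.32, adj.p = 0.0011) and parenchyma (0.33, adj.p = 0.00079), in PBS.CS airways (0.23) and parenchyma (0.27), and in HDM.CS airways (0.27) and parenchyma (0.26), but in PBS.AIR it gave 0.17 (adj.p = 0.15) and 0.19 (adj.p = 0.08). Among all genes, 12.5% rose in HDM.AIR airways, 12.2% in HDM.AIR parenchyma, 4.68% and 7.39% in PBS.CS and 2.25% and 2.46% in HDM.CS. Ocln went from a median of 53.3 CPM to 67.3 CPM in HDM.AIR parenchyma, and so remained below the 87.2 CPM of the lowest PBS.AIR library. Tjp1 was higher with DEX in HDM.AIR airways (0.43, adj.p = 0.0042) and parenchyma (0.38, adj.p = 0.012), and no other background passed for this gene. Without library X109 the airway values in HDM.AIR were 0.34 for Ocln, 0.47 for Tjp1 and -0.76 for Cldn1, all past the threshold. Relative to pan-epithelial markers, the higher Ocln level in HDM.AIR passed in airways (0.27) and not in parenchyma (0.22). Median alveolar type I sums in HDM.AIR were 2220 CPM without and 3230 CPM with DEX in airways, and 3150 and 4100 CPM in parenchyma. Endothelial medians were 759.7 and 1050 CPM in airways, and 996.7 and 1260 CPM in parenchyma. The part of these markers in the higher Ocln and Tjp1 levels was not tested.

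Of the other claudins, Cldn3 was higher with DEX in HDM.AIR parenchyma (0.56, adj.p = 0.015) and Cldn10 in PBS.AIR parenchyma, from 10.9 to 22.6 CPM (median 14.8) to 19.4 to 31.6 CPM (median 26.4; log2FC 0.81, adj.p = 4.9e-05). Cldn7 gave 0.24 in PBS.AIR parenchyma (adj.p = 0.046), which did not pass in 4 alternatives. Cdh1 was higher in PBS.AIR (0.37, adj.p = 0.00024) and HDM.AIR parenchyma (0.22, adj.p = 0.023). Among all genes, 10.6% rose in PBS.AIR parenchyma and 8.03% rose in PBS.AIR airways, where no member rose. In PBS.AIR parenchyma 4 of 6 pan-epithelial markers rose too, with sums of 865 to 1060 CPM and 1240 to 1530 CPM, and relative to these markers Cdh1 stood at -0.04 and Cldn10 at 0.40, where the median of all genes was -0.41.

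Calls of Cldn4 under CS and DEX changed without single libraries. In HDM.CS parenchyma it was higher with DEX (0.79, adj.p = 0.037), where 1 DEX library, X160, had 43.8 CPM and the next 12.6 CPM. Without X160 the log2FC was 0.57 (adj.p = 0.2), and adj.p was 0.051 without the filter on low counts. CS less AIR under DEX in parenchyma likewise gave Cldn4 0.84 (adj.p = 0.026; 9.32% of all genes were higher) and 0.60 (adj.p = 0.14) without library X116. In HDM.AIR parenchyma the log2FC of Cldn4 with DEX was -0.61 (adj.p = 0.065), and -0.80 with adj.p = 0.0087 in edgeR's quasi-likelihood test. In airways CS under DEX changed 0 of the 9 members in limma-voom, edgeR and DESeq2 (1 at an unadjusted p under 0.05), beside 2.26% of all genes higher and 1.67% lower. Under DEX, Ocln was lower with CS in PBS-exposed parenchyma (-0.26, adj.p = 0.016, beside 8.93% of all genes) and Cldn10 was higher where CS was added to HDM in both tissues (0.51 in airways and 0.58 in parenchyma, beside 1.73% and 4.11%), with Cldn1 lower in parenchyma (-0.67, beside 5.58%) and no member lower in airways (3.23%).

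**Figure D5:**
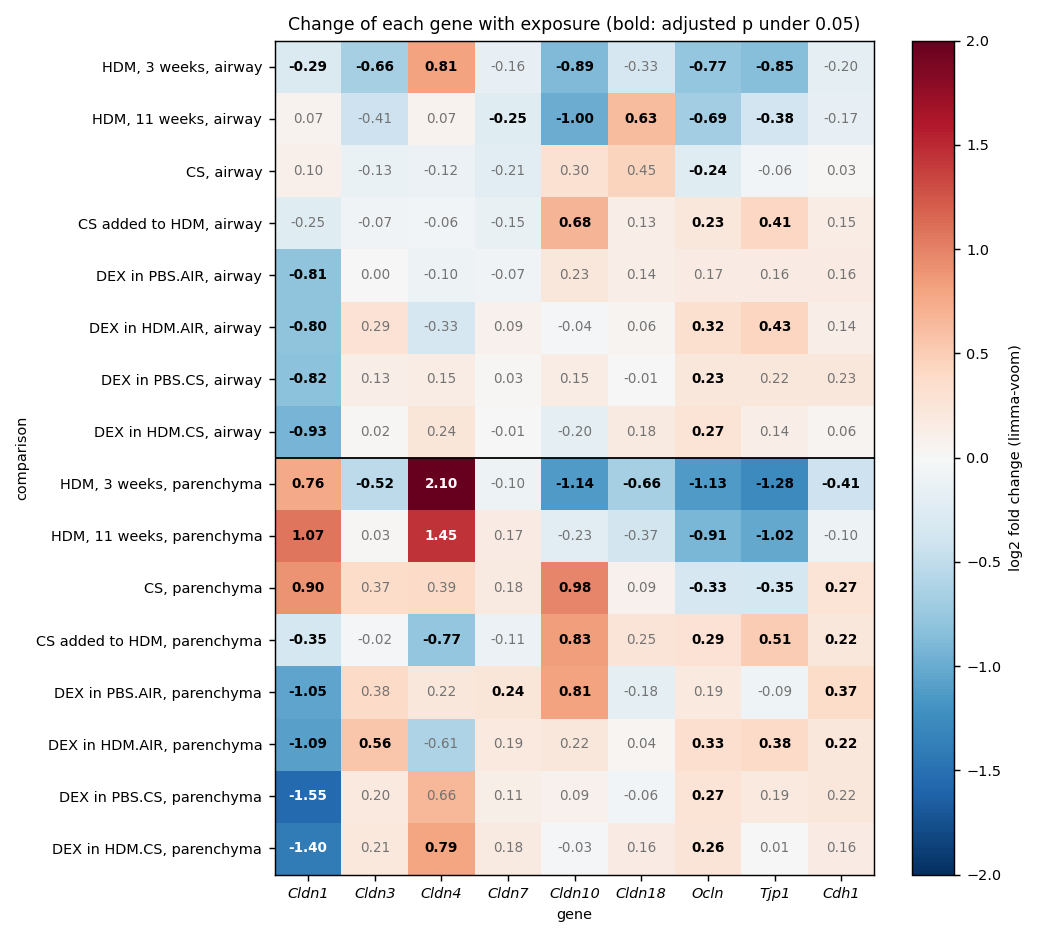
log2FC of each member in the HDM, CS and DEX comparisons of each tissue; bold values passed adj.p under 0.05. The Cldn1 values are negative in all 8 DEX comparisons, and Ocln is negative in every HDM comparison.

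The other genes of junctions were taken from lists. Of the further tight junction membrane genes (other claudins, the JAM genes, tricellulin and others), 3 of 16 tested rose and 11 fell with HDM at 3 weeks in airways, 1 and 12 of 16 in parenchyma, 2 and 12 of 18 at 11 weeks in airways, and 2 and 8 of 18 in parenchyma. Of 12 scaffold genes 10 fell at 3 weeks in each tissue, and 6 and 9 at 11 weeks, while 1 rose in each comparison. Of all genes, 40.5% and 44.3% fell at 3 weeks in airways and parenchyma, and 29.8% and 26.9% at 11 weeks. Cldn2, which forms pores for cations and water, rose by log2FC 2.25 and 2.06 at 3 weeks and 1.94 and 2.85 at 11 weeks in airways and parenchyma. Cldn8, a sealing claudin, fell by 2.34 and 2.17 at 3 weeks and by 2.09 in airways at 11 weeks. Cldn5, the claudin of endothelium, which is also among the endothelial markers above, fell by 1.44 in parenchyma at 11 weeks.

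In the remaining junction lists, 5 of 12 adherens junction genes fell and 3 rose at 3 weeks in airways, and 6 fell and 3 rose in parenchyma, close to the shares of all genes (40.5% lower and 34.1% higher in airways, 44.3% and 33.4% in parenchyma). Of 9 desmosome genes 6 and 5 fell and 2 rose in each tissue. Of 10 gap junction genes 4 rose and 4 fell in each tissue, with Gjb5, a connexin, up by 1.4 in airways and 1.3 in parenchyma. Of 5 genes for membrane proteases and their inhibitors that act on epithelial junctions 4 fell and 1 rose in each tissue at 3 weeks. With DEX in HDM.AIR mice 9 of 12 scaffold genes rose in each tissue and none fell, beside 12.5% and 12.2% of all genes, and 9 of 18 membrane genes rose in parenchyma. Cldn2 fell with DEX there by 1.04 in airways and 0.92 in parenchyma, and also by 0.89 in airways where CS was added to HDM.

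Regulators of epithelial identity and of junction genes were also counted. Of 10 identity regulators (the Grainyhead-like, Ovol and Esrp genes, Elf3, Klf5 and Nkx2-1) 7 fell and 1 rose at 3 weeks in airways and 8 and 1 in parenchyma, and at 11 weeks 8 and 0 in airways and 5 and 1 in parenchyma. In parenchyma at 3 weeks Grhl3 fell by 1.25, Ovol1 by 1.37 and Grhl2 by 0.51, and Elf3 rose by 0.60. Esrp1 is both an identity regulator here and a pan-epithelial marker above. Of 6 repressors of Cdh1 and claudins (the Zeb, Snai and Twist genes) 5 fell and 1 rose at 3 weeks in airways and 3 and 1 in parenchyma, and at 11 weeks 4 and 1 in airways and 4 and 0 in parenchyma. At 3 weeks 40.5% of all genes fell in airways and 44.3% in parenchyma, and at 11 weeks 29.8% and 26.9%. At 3 weeks Snai2 fell by 2.00 in airways and 2.49 in parenchyma, and Zeb1 by 0.98 in parenchyma. Zeb2 rose by 0.28 in parenchyma at 3 weeks. In whole tissue the cells that make these repressors cannot be told apart, and no link to the members was tested.

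Across the 20 group means, Ocln and Tjp1 varied together (Pearson r = 0.92), as did Ocln and Cdh1 (0.83) and Cldn3 and Cldn7 (0.72), while Cldn4 and Tjp1 ran opposite (-0.88). The points share tissues and exposures and are no independent samples. Within groups Cldn4 and Cldn7 went together more in parenchyma (0.70) than in airways (0.58), and Ocln and Tjp1 more in airways (0.77) than in parenchyma (0.44), a difference that was not tested. Among all genes of the fit, the closest in pattern over the 20 group means were Ctdspl for Tjp1 (r = 0.991), Spg20 for Ocln (0.987), Matn4 for Cldn18 (0.972), Cpm for Cdh1 (0.962), Cckar for Cldn10 (0.957), Has2 for Cldn4 (0.953), Icosl for Cldn1 (0.918), Gcat for Cldn3 (0.888) and Rhbg for Cldn7 (0.850). For Cldn1 the next were Gpr82 (0.890) and Flt3 (0.886).

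Some identities carry limits of annotation. On GRCm38 the members lie at chr16:26356642-26371841 (Cldn1), chr5:134986214-134987472 (Cldn3), chr5:134945119-134946934 (Cldn4), chr11:69964779-69967885 (Cldn7), chr14:118787908-118875489 (Cldn10), chr9:99689461-99717267 (Cldn18), chr13:100496507-100552718 (Ocln), chr7:65296165-65527781 (Tjp1) and chr8:106603351-106670246 (Cdh1), and all are protein coding. An antisense gene overlaps Cldn3 (Wbscr25) and Cldn18 (Gm16004), an rRNA gene lies within Cldn10, and 3 small genes lie within Tjp1. Whether counting used strand is not given in the sources used here, so reads of these antisense genes cannot be told apart from those of Cldn3 and Cldn18.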

How the data were processed

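RNA-seq was analysed in 203 libraries of dissected mouse airways and parenchyma. Per the labels, 100 bp single reads were processed with bcl2fastq 2.20.0.422, STAR 2.5.1b, RSEM 1.2.31 and kallisto 0.44.0 on mm10. Which tool made the table, and whether strand was used, is not given in the sources used here. The deposited values are estimated counts per gene, not normalized by the authors, and 20.3% of non-zero values were not whole. They were rounded. Of 43346 identifiers 42462 matched GENCODE M21, of which 23106 had the same version.

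Groups were taken from the labels. Separate fits of limma-voom (limma 3.58.1, R 4.3.3) with TMM scaling (edgeR 4.0.16) and 1 mean per group were made for 3 weeks (43 libraries, 17381 genes), 11 weeks (160 libraries, 18250 genes) and all libraries (18528 genes, for differences between times and for levels). Genes were kept where at least 9 libraries reached the CPM that 10 counts give in the median library. P-values were adjusted over all genes of a fit by Benjamini-Hochberg, with a threshold of 0.05. CPM are TMM-scaled, and intervals are 95%, from the normal quantile. The intervals give the uncertainty of a difference of group means, estimated from the spread between libraries. No label names the mouse, and airway and parenchyma libraries that may share a mouse were treated as independent. Levels per length used the exon length of M21. Marker lists were summed in CPM. The fits were repeated with DESeq2 1.42.0, with its size factors, with edgeR's quasi-likelihood test, with other filters, as 1 fit of all libraries, and, chosen after seeing the data, without single libraries and with blocks of 20 successive library codes as a term. The scripts were tested on simulated data. Outside the 9 members, the genes named are up to 3 with the largest rise and 3 with the largest fall among the listed junction genes past the threshold in a comparison, the listed regulators, and up to 3 genes most like a member over the group means. A gene that this rule would name is not reported here. The members and lists were chosen with earlier results of these data known.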

Additional observations from a re-analysis of the deposited data

Results flagged for a closer look

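Each of the 9 members was checked in the 18 groups of 10 libraries. In 14 cases 1 library lay beyond Dixon's critical value, and chance gives about 1 in 20. Cldn4 was high in library X63 of 3 week HDM airways (39.9 CPM, next 26.9 CPM), X173 of PBS.CS parenchyma (8.28, next 5.48 CPM), X116 of PBS.CS.DEX parenchyma (35.5, next 10.5 CPM), X159 of HDM.CS.DEX airways (38.5, next 19.5 CPM) and X160 of HDM.CS.DEX parenchyma (43.8, next 12.6 CPM). Cldn7 was high in X160 as well (77.4, next 55 CPM). Cldn10 was high in X187 of PBS.AIR.DEX airways (63.4, next 42 CPM), X90 of HDM.AIR parenchyma (22.9, next 13.9 CPM), X171 of HDM.AIR.DEX airways (27.6, next 19.2 CPM), X33 of PBS.CS airways (65, next 44.5 CPM) and X173 of PBS.CS parenchyma (47.6, next 33.5 CPM). Low values were those of Cldn18 in X78 of HDM.CS parenchyma (670 CPM, next 759 CPM), Tjp1 in X173 (248, next 367 CPM) and Cdh1 in X174 of PBS.CS airways (210 CPM, next 305 CPM). The highest pan-epithelial marker sums in the groups of X116 and X160 were 2600 and 2440 CPM.

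Effects that differed between settings, by limma-voom's test of the difference with adjusted p under 0.05, were the following log2 differences. Between air and CS, the HDM effect differed for Ocln (0.47) and Tjp1 (0.48) in airways and for Cldn1 (-1.25), Cldn4 (-1.16), Ocln (0.62) and Tjp1 (0.85) in parenchyma. Between 11 and 3 weeks it differed for Cldn4 (-0.80) and Cldn18 (0.90) in airways and Cldn10 (0.78) in parenchyma. Between airways and parenchyma it differed at 3 weeks for Cldn1 (-1.04), Cldn4 (-1.29) and Ocln (0.36), and at 11 weeks for Cldn1 (-1.0), Cldn4 (-1.38), Cldn7 (-0.42), Cldn10 (-0.76), Cldn18 (1.00) and Tjp1 (0.63). The CS effect differed between tissues for Cldn1 (-0.80).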

How the results depend on the processing

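Of the counts of members recomputed under an alternative, 613 stayed within 1.5 times and 71 moved, to values of 0, 1, 2, 3, 4 or 5. Larger moves were 4 to 1 members lower (HDM under CS and DEX in airways) and 3 to 0 lower (airway less parenchyma in HDM.CS mice), both without the filter on low counts, 2 to 4 lower (HDM under CS in airways, among genes of at least 10 CPM and without 6 libraries), 1 to 3 higher (DEX in PBS.CS parenchyma, quasi-likelihood test and DESeq2) and 1 to 3 higher (CS added to HDM under DEX in parenchyma, DESeq2). Scaled by total counts, 2 levels of a member in a group moved by more than 1 SD, Cldn7 to 43.7 CPM and Ocln to 76.6 CPM in 3 week PBS parenchyma. Of the single values 2998 kept direction and call, 53 no longer passed and the others came to pass or, in 43 cases, changed sign, to values of -0.05, -0.04, -0.02, -0.01, 0.00, 0.01, 0.02, 0.03 or 0.04, where the cause was not tested.

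The library codes run in blocks of 20 with about 1 library per group, which the labels do not explain. The last block is an exception, with 4 libraries that are all of 3 week PBS. After subtraction of group means, libraries of different groups had a median r across genes of 0.08 within a block and -0.01 between blocks, and 90 libraries correlated best with their own block. With this replicate block as a term, chosen after seeing the data, 34 single values came to pass (11 week HDM effect on Cldn3 in airways -0.41, adj.p = 0.0043), none of those that had passed was lost, and 17 counts moved, among them 3 to 5 higher (DEX in PBS.AIR parenchyma) and 3 to 5 lower (HDM under CS and DEX in parenchyma). Airway and parenchyma libraries of an exposure with successive codes had a median r of 0.26 (87 of 100 pairs above 0.1), and which libraries share a mouse is not given in the sources used here, so no fit used these pairs. Fits without X109, X173, X116, X159 or X160 and without 6 libraries that stood apart in depth or markers were chosen after seeing the data. Counts per gene do not separate transcripts, cell types or strand.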
